A study of Mus musculus with 9 samples.

Results

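The barcodes described here are round spermatids (RS), the haploid male germ cells that follow meiosis. They were chosen from the testes of 9 mice by a rule on the read-outs themselves. A barcode had to hold 2000 to 15000 unique molecular identifiers (UMIs, each a counted RNA molecule), of which under 10% lay in mitochondrial genes, and over 1000 genes had to be detected in it. It also needed a UMI in at least 3 of 6 markers, with at least 0.2% of its UMIs in the 6 together. The markers were Acrv1 and Spaca1 of the acrosome, the kinases Tssk1 and Tssk3, the nuclear protein gene Tsga8, and Ccdc81. Of 45132 barcodes that passed the filter on genes and mitochondrial UMIs, 776 (1.72%) were RS by this rule. The levels of the 6 markers and the number of UMIs are therefore part of the choice and are given as description only.

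All mice were males at postnatal day 24, labelled C57BL/6 and, by the study's methods, backcrossed to C57BL/6 J, an age at which the leading germ cells of the mouse testis have only lately passed meiosis. The Control group had 4 mice, the NELF-B cKO group 2 and the TDP-43 cKO group 3. The cKO mice carried 1 floxed and 1 null allele (F/-) of Nelfb, floxed around exons 1 to 4, or of Tardbp, which encodes TDP-43 and was floxed at exon 3, with the Stra8-iCre transgene, whose recombinase is active in spermatogonia. Some controls were littermates of cKO mice and others were not, and each library came from the digested testis tissue of a mouse. Single cells were captured with 10x Genomics 3′ chemistry, which reads the 3′ end of a transcript. The 3′ ends of both genes lie outside the deleted parts, so that Tardbp UMIs are no measure of the loss of exon 3. The positions of the reads within the genes were not examined. The Nelfb deletion takes the first exon and may lower the level of the transcript.

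Spermatids build sperm from a round cell. Golgi vesicles fuse into the acrosome, a centriole grows the flagellum, and in later steps histones give way to transition proteins and then to protamines, which pack the DNA and end transcription. Genes for this work are switched on after meiosis, many under the regulator CREM, and their mRNAs are often held in ribonucleoprotein particles until they are translated. The X and Y chromosomes, silent in pachytene spermatocytes (SC), are partly transcribed again. NELF holds RNA polymerase II near the promoter shortly after initiation, and TDP-43 binds RNA and DNA and acts in splicing and transcription.

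The promoters of the 4 genes that pack the DNA and that differed most between mice, and of the marker Acrv1, are shown first. Each is the 250 bases before the RefSeq start in GRCm38.p6, read 5′ to 3′ on the strand of the gene. They lie at chr9:36692970-36693219 on the plus strand for Acrv1, and on the minus strand at chr16:10796824-10797073 for Prm1, chr16:10792106-10792355 for Prm2, chr1:73015900-73016149 for Tnp1 and chr16:10788656-10788905 for Tnp2. The windows of Prm1 and Prm2 lie inside the longer models of these genes in the annotation of the count tables. Capitals mark the motifs searched on both strands, namely TGANGTCA (a cAMP response element, to which CREM binds, with N for any base), the TATA box form TATAA, the repeat TATATA, which can overlap it, and TTGCCATGG, part of the X box of RFX factors.
Acrv1: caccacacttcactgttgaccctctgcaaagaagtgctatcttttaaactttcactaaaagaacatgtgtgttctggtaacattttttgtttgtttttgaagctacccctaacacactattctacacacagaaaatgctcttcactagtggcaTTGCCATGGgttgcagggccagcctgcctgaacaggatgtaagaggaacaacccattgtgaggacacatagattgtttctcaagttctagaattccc
Prm1: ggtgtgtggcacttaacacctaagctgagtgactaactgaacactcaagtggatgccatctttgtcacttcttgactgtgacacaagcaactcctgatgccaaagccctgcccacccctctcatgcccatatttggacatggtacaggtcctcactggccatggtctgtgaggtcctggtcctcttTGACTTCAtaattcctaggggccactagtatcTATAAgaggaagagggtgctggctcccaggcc
Prm2: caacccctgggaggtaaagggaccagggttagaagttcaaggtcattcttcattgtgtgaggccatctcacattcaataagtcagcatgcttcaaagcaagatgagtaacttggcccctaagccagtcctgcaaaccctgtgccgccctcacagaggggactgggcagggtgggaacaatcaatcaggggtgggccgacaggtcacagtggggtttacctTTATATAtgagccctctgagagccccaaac
Tnp1: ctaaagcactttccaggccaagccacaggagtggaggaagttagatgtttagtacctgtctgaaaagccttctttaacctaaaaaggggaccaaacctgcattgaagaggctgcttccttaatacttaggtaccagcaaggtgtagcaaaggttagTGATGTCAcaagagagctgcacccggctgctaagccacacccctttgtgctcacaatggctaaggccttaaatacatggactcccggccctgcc
Tnp2: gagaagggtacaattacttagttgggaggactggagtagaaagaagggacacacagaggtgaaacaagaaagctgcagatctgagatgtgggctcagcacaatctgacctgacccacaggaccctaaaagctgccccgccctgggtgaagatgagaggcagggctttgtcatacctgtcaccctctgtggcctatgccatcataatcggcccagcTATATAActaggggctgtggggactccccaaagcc
TGANGTCA stood in the Tnp1 promoter, beginning 94 bases before the start, and on the other strand in the Prm1 promoter at 64 bases. It is found in 7.49% of 32851 mouse promoters of the same length. TATAA stood at 32 bases in Prm1, at 33 in Tnp2 and, on the other strand, at 30 in Prm2, against 22.8% of all promoters. TATATA overlapped it in Tnp2 and Prm2 (5.25% of all promoters). TTGCCATGG stood in the Acrv1 window alone, 97 bases before the start (0.606% of all promoters). A match to a motif is a description of the letters and no evidence of binding.

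RS were few and unevenly spread over the mice. The control mice gave 301, 56, 155 and 101 RS, in all 613 (79.0%). The NELF-B cKO mice gave 115 and 2, and the TDP-43 cKO mice 1, 14 and 31. Replicate 1 of the NELF-B cKO thus lay among the controls, and the other 4 cKO mice lay below every control. As a share of the barcodes that passed the filter, RS made up 3.95%, 0.662%, 3.02% and 2.07% in the controls, 2.04% and 0.0671% in the NELF-B cKO, and 0.0253%, 0.463% and 0.898% in the TDP-43 cKO. The exact 95% binomial interval, which covers counting error only, was 3.52% to 4.41% in control replicate 1 and 0.501% to 0.859% in control replicate 2, so the controls differed among themselves by more than counting error. TDP-43 cKO replicate 3 overlapped control replicate 2 on this scale. The control mean was 2.43% ± 1.40 (SD, n = 4).

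The share was lower in both cKO groups on average, and neither difference passed its test. The NELF-B cKO mean was 1.05% ± 1.39 (SD, n = 2), a difference of -1.37 percentage points with p = 0.267 in the exact two-sided permutation test over mice. The TDP-43 cKO mean was 0.462% ± 0.436 (SD, n = 3), a difference of -1.96 percentage points with p = 0.114 (exact permutation, two-sided). With these numbers of mice the smallest p the design allows is 0.133 for the NELF-B cKO and 0.0571 for the TDP-43 cKO. In these data fewer RS cannot be told apart from RS that hold fewer UMIs or were lost in handling. Free RNA, read from the barcodes with the fewest UMIs, also held the RS markers. They took 0.141%, 0.0464%, 0.0975% and 0.0989% of its UMIs in control replicates 1 to 4, against the 0.2% that the rule asked. In the NELF-B cKO they took 0.0805% and 0.00822%, and in the TDP-43 cKO 0.00310%, 0.0150% and 0.0135%. What part free RNA had in the RS shares was not tested. Libraries held 119203347 to 159407373 UMIs, but 2982 to 8457 barcodes passed the filter in each, with medians of 1754 to 19254 UMIs per passed barcode. No member shared its barcode with a member of another library, and the barcodes of 6 members also passed the filter in another library. Doublets were not called.

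**Figure D1:**
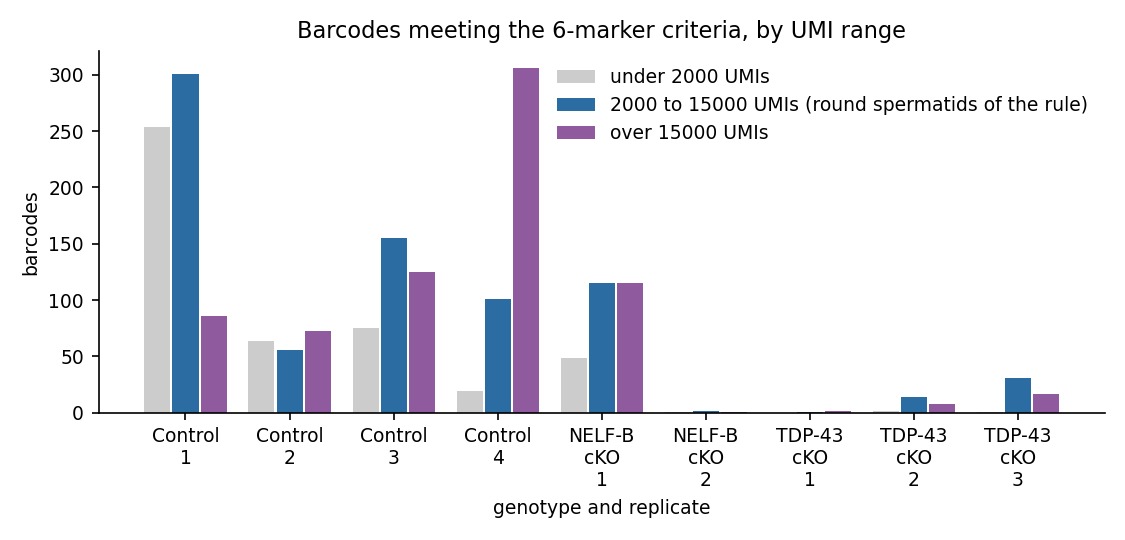
Number of barcodes (y axis) that met the criteria of the 6 markers in each mouse (x axis), split by UMIs per barcode into under 2000, 2000 to 15000 and over 15000. Control replicate 1 held 301 barcodes in the middle range and control replicate 4 held 306 above it, while the 4 cKO mice other than NELF-B cKO replicate 1 held at most 31 in any range.

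The UMI limits cut through a wider population. Barcodes with the same markers numbered 465 under 2000 UMIs and 733 over 15000 UMIs, and the latter had a median of 37045 UMIs. The balance of these ranges differed between mice. Control replicate 1 held 254 barcodes under, 301 within and 86 over the limits, and control replicate 4 held 19, 101 and 306. Over 15000 UMIs, the other control mice held 73 and 125 barcodes, the NELF-B cKO mice 115 and 1, and the TDP-43 cKO mice 2, 8 and 17. The median number of UMIs in an RS was 2659, 5216, 3317 and 3835 in the control mice, 3463 in NELF-B cKO replicate 1, and 3211 and 4448 in TDP-43 cKO replicates 2 and 3. Members just inside the limits had counterparts just outside them: 283 RS had 0.2% to 0.25% of their UMIs in the markers, and 354 barcodes had 0.15% to 0.2%. With 3 markers there were 151 RS, against 39 barcodes with 2 markers that met the other criteria. From 12500 to 15000 UMIs there were 28 RS, and 20 barcodes lay between 15000 and 17500. Of the RS, 252 had UMIs in 4 markers, 227 in 5 and 146 in all 6.

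The name round spermatid was checked against genes that the rule did not use. UMIs were summed over the RS of a mouse and given as CPM, in which every sum is scaled to the same total. Genes on the X chromosome took 1.32% ± 0.139 of UMIs in the RS of the 4 control mice, against 0.206% ± 0.0157 in late SC (barcodes of over 15000 UMIs with SC markers and without the RS criteria). The DNA-packing genes (11 genes for transition proteins, protamines and other proteins of nuclear condensation) summed to 5149 ± 2074 CPM in RS and to 179 ± 65.1 CPM in late SC. A list of 12 spermatid genes on the X and Y chromosomes summed to 1404 ± 103 CPM in RS, against 59.0 ± 15.6 in late SC. Acrosome genes other than the markers reached 4404 ± 392 CPM, against 2653 ± 178 in late SC. These lists were higher in RS than in late SC. The flagellum list differed less, at 10972 ± 161 against 9424 ± 95.0 CPM, and the glycolysis and translational control lists were lower in RS, at 6609 ± 850 and 3993 ± 457 CPM against 10313 ± 260 and 8996 ± 215 CPM. In free RNA of the control mice, acrosome genes were at 2647 to 3500 CPM, the nuclear condensation list at 385 to 3474 CPM, the X and Y spermatid genes at 251 to 847 CPM, and the X chromosome at 0.826% to 0.997% of UMIs. The early and late SC markers were at 1179 ± 123 and 1254 ± 166 CPM in RS, against 3363 ± 199 and 2749 ± 102 CPM in late SC. Late SC barcodes were chosen by genes of these lists (Sycp1, Sycp3, Ccna1, Pou5f2, Clgn and Hspa2), so their higher level is part of the choice. The SC markers in RS were therefore also set against free RNA. In free RNA, taken from the barcodes with 1 to 100 UMIs, they were at 1203 to 2104 and 1764 to 1959 CPM, so the RS levels were not above that background.

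Somatic markers took a small part of the UMIs of the control RS. The 8 Sertoli cell markers summed to 216 to 567 CPM, against 9974 to 13260 CPM in barcodes with Sertoli markers and 727 to 1418 CPM in free RNA. The 6 Leydig cell markers summed to 8.28 to 20.5 CPM and the 13 markers of other somatic cells to 26.3 to 33.1 CPM. UMIs were found for 7 of 8 Sertoli markers, 5 of 6 Leydig markers and 11 of 13 others, while Amh, Insl3, C1qa and Csf1r were at 0. The Sertoli marker Clu had a UMI in 44.5%, 39.3%, 51.0% and 55.4% of the RS of the control mice. Of 2307 barcodes with Sertoli markers, 88 held a UMI in at least 3 RS markers and 3 (0.130%) also met the RS rule. That rule leaves out barcodes of over 15000 UMIs, and the choice by Sertoli markers had no such limit.

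By another measure most RS were unlike the larger barcodes with the same markers. Genes that span over 100 kb (2804 genes) took a median of 19.6% of the UMIs of an RS, with quartiles of 13.8% and 24.1%. In the 733 barcodes with over 15000 UMIs the median was 8.37%, with quartiles of 7.43% and 9.40%. The RS fell into a small cluster and a broad one. There were 27 RS at 4% to 6% long-gene UMIs and 97 at 6% to 8%, 20 in each of the next 2 bins of the same width, and a broad mode that peaked with 99 RS at 20% to 22%. In all, 144 RS (18.6%) lay under 10%, where most of the larger barcodes lay too. The nuclear long non-coding RNA Malat1 moved with this share. It stood at 2338, 2993, 4086 and 4075 CPM in the summed RS of the 4 control mice, a mean of 3373 ± 860 CPM, against 743 ± 121 CPM in the larger barcodes. Ribosomal protein genes took 2.98% ± 0.421 of UMIs in RS and 4.71% ± 0.332 in the larger barcodes, and mitochondrial genes 2.19% ± 0.0786 and 0.412% ± 0.0624. In free RNA the long-gene share of the control mice was 6.64% to 10.6%. What part incomplete cells, nuclei or unspliced RNA had in the high long-gene share was not tested, and whether intronic reads were counted is not given in the sources used here.

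**Figure D2:**
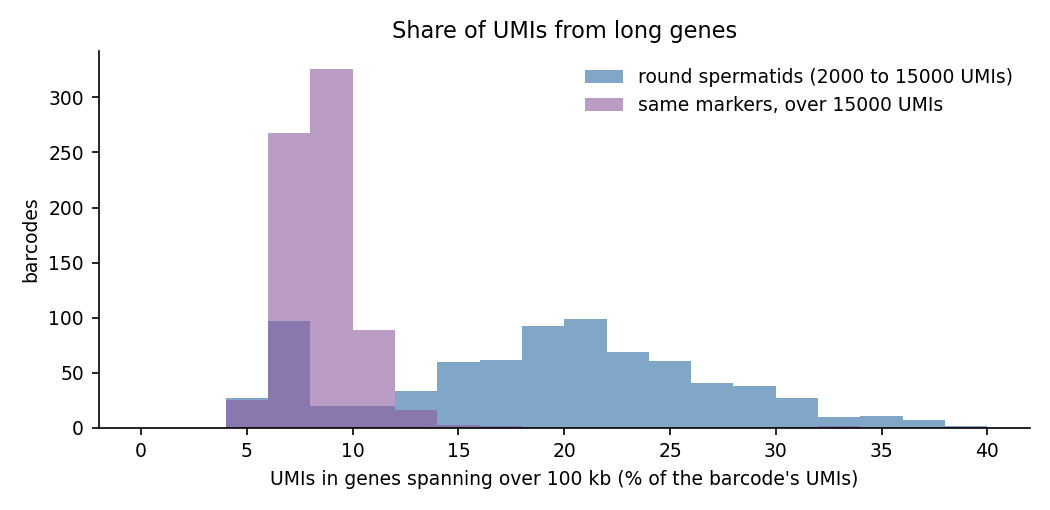
Histogram of the share of UMIs in genes spanning over 100 kb (x axis, percent of the UMIs of a barcode) for the 776 RS and for the 733 barcodes with the same markers and over 15000 UMIs (y axis, barcodes per 2 percentage points). The larger barcodes form a peak near the median of 8.37%, and the RS form a small peak at 6% to 8% and a broad one around 20%.

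The long-gene share differed across the UMI limits. RS of 2000 to 2500 UMIs had a median of 16.9% long-gene UMIs, and the 284 barcodes with 1500 to 2000 UMIs and the same markers had 7.77%. Control replicate 1 gave most of the barcodes under 2000 UMIs, with a summed share of 8.11%, and the other controls and NELF-B cKO replicate 1 had 11.1% to 14.7%. At the upper limit the medians were 14.6% for 12500 to 15000 UMIs and 8.95% for 15000 to 17500. The median by mouse was 17.3%, 19.7%, 20.5% and 22.2% in the controls, 21.5% in NELF-B cKO replicate 1, and 23.8% and 29.6% in TDP-43 cKO replicates 2 and 3. Both TDP-43 cKO medians thus lay above those of every control.

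The 20 RNAs with the highest mean in the control RS held mitochondrial, nuclear and germ cell RNAs. The 3′ chemistry is meant to count each molecule once, so CPM was not divided by transcript length. Whether reads from introns raised the counts of long genes is not known here. Gm42418, a locus known to collect ribosomal RNA reads, led with 10400 ± 4144 CPM (SD, n = 4). It was followed by the mitochondrial mt-Co3 at 5284 ± 189 CPM, mt-Atp6 at 4578 and mt-Co2 at 4555. Ldhc, the lactate dehydrogenase subunit of germ cells, came next with 3834 ± 694 CPM, and Malat1 has been given above. Meig1, needed for assembly of the sperm tail, had 3186 ± 549 CPM, and the ubiquitin gene Ubb had 2439 ± 430. Fabp9, a testis fatty acid binding protein, had 1933 ± 251 CPM and Ropn1l, a protein of the sperm fibrous sheath, had 1811 ± 147. Ctnna3, an alpha catenin gene of great length, had 1917 ± 325 CPM, and Spag16, of the axoneme, had 1470 ± 501. The other genes among the 20 with the highest control mean were mt-Co1, Cox8c, Hsp90aa1, Rbakdn, Agbl4, Lyar, Gstm5 and Gm5617, from 1526 to 2571 CPM.

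The RNAs of the rule's 6 markers were at 837 ± 120 CPM for Acrv1, 728 ± 82.3 for Tsga8, 678 ± 84.9 for Spaca1, 357 ± 59.4 for Ccdc81, 322 ± 38.5 for Tssk1 and 242 ± 62.7 for Tssk3 in the control mice. Other acrosome genes were expressed beside them. Spink2, an inhibitor of acrosomal proteases, had 961 ± 116 CPM, and Zpbp, which binds the zona pellucida, 524 ± 55.7. Spaca7 had 516 ± 76.3 CPM, the proacrosin binding protein Acrbp 429 ± 114, and Acr, the protease acrosin itself, 180 ± 4.33. The Acrv1 neighbour 1700027I24Rik had 68.0 ± 11.8 CPM. Among the spermatid lists, the flagellum list of 25 genes was the steadiest over the control mice relative to its level, with a sum of 10972 ± 161 CPM. Within it the fibrous sheath gene Fsip2 had 1172 ± 203 CPM, the radial spoke gene Rsph1 1047 ± 256, the outer dense fibre gene Odf2 978 ± 67.7 and Smcp, of the mitochondrial capsule, 816 ± 53.2.

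Testis isoforms of glycolysis stood beside low levels of their somatic forms. Gapdhs had 301 ± 47.7 CPM and Gapdh 32.9 ± 7.45, and Pgk2 had 207 ± 12.8 and the X-linked Pgk1 9.45 ± 6.11. The 14 regulators of haploid transcription summed to 2702 ± 55.4 CPM, and Crem among them had 462 ± 41.8. Of the genes that store and translate mRNA, the Y box protein gene Ybx3 had 924 ± 114 CPM and the poly(A) binding protein gene Pabpc1 1167 ± 166. The SC gene Sycp1, of the synaptonemal complex, was at 448 ± 42.8 CPM, in a list that was no higher in RS than in free RNA.

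RNAs of the histone-to-protamine exchange were the most uneven of the spermatid lists. Prm3, at 816 ± 37.5 CPM, varied little over the control mice, and the spermatid linker histone Hils1 had 573 ± 102. Hmgb4 had 511 ± 143 CPM, the remodeller Chd5 341 ± 81.5, the linker histone H1fnt 212 ± 82.7 and the histone variant H2al2a 93.5 ± 50.2. The protamine genes Prm1 and Prm2 and the transition protein genes Tnp1 and Tnp2 also varied widely over the control mice, and their values are given by mouse with the genotypes.

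RS varied among themselves along the long-gene share before anything else. The first principal component of 6620 genes held 3.26% of the variance. Its low end carried 1700030N03Rik, Mgat4c, Cep112, Iqcm, Scaper, Agbl3, Fsip2, Cnbd1, Gm11639 and Malat1 among its 15 leading genes, with a median span of 173 kb. Its high end carried Ldhc, Meig1, Ubb, Fabp9, Gstm5, Pebp1, Ropn1l and Rpl13, with a median span of 4.97 kb against 26.5 kb for all 6620 genes. Across the 776 RS the position correlated with the long-gene share (Spearman rho = -0.957), the ribosomal protein share (0.933), the glycolysis list (0.792) and Malat1 (-0.584), and with UMIs per barcode at -0.315. These measures come from the same UMIs as the component, so the values describe it and carry no test. The nuclear condensation list, with a rho of 0.04, did not follow it.

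The second component, with 2.19% of the variance, followed the later genes. Tnp1, Tnp2, H1fnt, Cdyl, Saxo1, 1700020G17Rik and 4930500H12Rik stood at its high end. Spag16, Atrnl1, Lrriq1, Cfap299, Cfap54 and Stpg2 stood at its low end. Its rho was 0.806 with the nuclear condensation list, 0.551 with the X and Y spermatid genes, 0.404 with the spermatid kinases and -0.641 with mitochondrial UMIs. The median position on it was -2.87, -6.79, 3.13 and -2.65 in the control mice, 1.05 in NELF-B cKO replicate 1, and -9.16 and -7.03 in TDP-43 cKO replicates 2 and 3. NELF-B cKO replicate 1 lay within the controls, and both TDP-43 cKO mice lay below all of them. The log2 ratio of the nuclear condensation and flagellum lists to the SC markers did not place the TDP-43 cKO mice so, at 2.87 and 2.85 against 2.37 to 2.92 in the controls.

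The genotypes were compared over mice with edgeR on the summed counts of 10337 genes in 7 mice. NELF-B cKO replicate 2 and TDP-43 cKO replicate 1 were left out, since they held 2 RS and 1 RS. The NELF-B cKO arm is therefore 1 mouse, assumed to vary like the others, and the TDP-43 cKO arm is 2 mice with 45 RS. A gene was called at a Benjamini-Hochberg adjusted p under 0.05. Both contrasts share the 4 control mice.

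Replicate 1 of the NELF-B cKO had more protamine and transition protein RNA per UMI than each control mouse. Prm1 was at 1145, 70.0, 1138 and 652 CPM in the RS of control mice 1 to 4 and at 3790 CPM in the NELF-B cKO mouse. Prm2 was at 812, 55.4, 789 and 487 CPM against 2198. These 2 protamines pack sperm DNA, and for both the cKO mouse lay above all 4 controls while control 2 lay far below the rest. Tnp1 was at 856, 236, 970 and 480 CPM against 2116 CPM, and Tnp2 at 1020, 90.4, 1004 and 528 CPM against 2246. The transition proteins, which replace histones ahead of the protamines, showed the same order. Prm1 passed the test with a log2 fold change of 2.30 (SE 0.47, adjusted p = 0.0308, edgeR). The log2 fold changes of Prm2, Tnp1 and Tnp2 were 2.00, 1.71 and 1.73, with adjusted p of 0.114, 0.131 and 0.293 (edgeR), and they were not called. The direction of these 4 genes held under every alternative setting. The Prm1 call was lost under 7 of 14 alternatives, with DESeq2 among them.

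This RNA was unevenly spread over the RS. Prm1 had 2126 UMIs in the NELF-B cKO mouse, of which 842 (39.6%) came from 1 barcode of 11299 UMIs, 6.03% of them in long genes. The same barcode held the most Prm2 UMIs (495 of 1233), Tnp1 UMIs (344 of 1187) and Tnp2 UMIs (415 of 1260) of that mouse. In control 1 the richest barcode held 360 of 1230 Prm1 UMIs. When each gene was counted at most once per RS, the log2 fold change of Prm1 was 0.20. The share of RS with a Prm1 UMI was 56.5%, 10.7%, 60.6% and 49.5% in the controls and 63.5% in the NELF-B cKO mouse. After each barcode was thinned to 2000 UMIs these shares were 45.5%, 5.36%, 43.9% and 38.6% against 47.8%. In barcodes with Sertoli markers, which should lack the gene, 21.4%, 0%, 13.5% and 13.3% against 26.1% had a Prm1 UMI when thinned alike. Those barcodes had medians of 4563, 6021, 13603 and 9656 UMIs in the controls and 4836 in the NELF-B cKO mouse before thinning. In free RNA, Prm1 was at 497, 5.12, 712 and 782 CPM in the controls and 1023 in the NELF-B cKO mouse, and its part in the RS values was not tested.

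Control 2 was also the lowest control in larger barcodes with the same markers. Over 15000 UMIs, Prm1 was at 713, 14.0, 6658 and 1831 CPM in the control mice and at 7980 CPM in NELF-B cKO replicate 1. There the cKO mouse and control 3 lay close to each other, and the spread among the controls was wider than in RS.

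**Figure D3:**
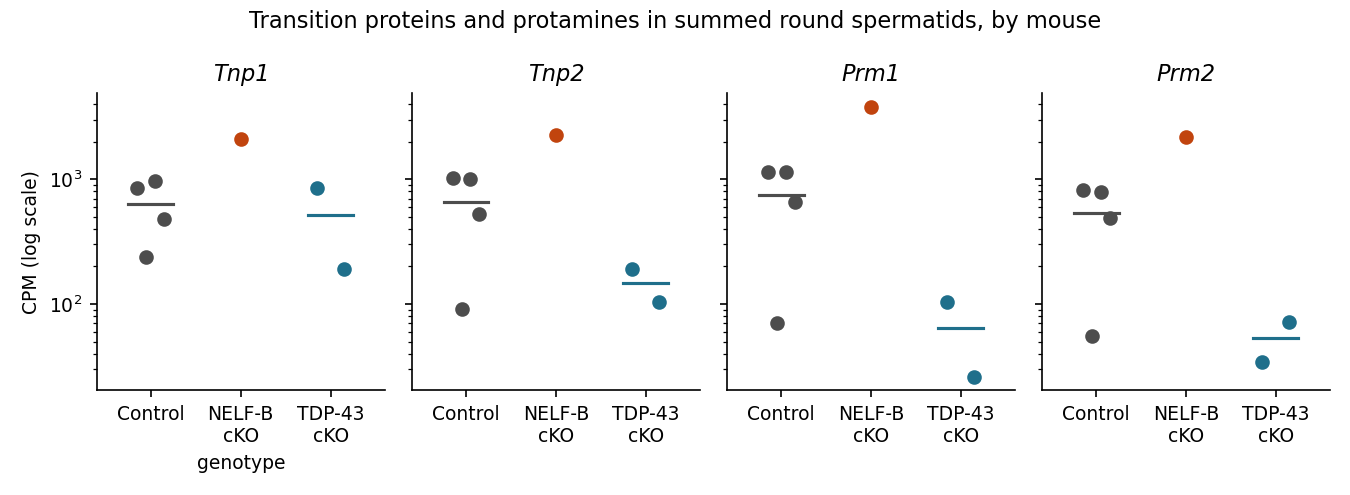
CPM (log scale, y axis) of Tnp1, Tnp2, Prm1 and Prm2 in the summed RS of each mouse, with 4 control mice, 1 NELF-B cKO mouse and 2 TDP-43 cKO mice. Points are mice and lines are means of groups with more than 1 mouse. The NELF-B cKO mouse lies above all controls in each panel, and control replicate 2 lies below the other controls, within or near the TDP-43 cKO values.

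Of the 10337 genes, 5 (0.0484%) were called higher in the NELF-B cKO and 0 lower, and 352 (3.41%) had an unadjusted p under 0.05 (edgeR). DESeq2 called 1 gene. The mouse lay outside all 4 controls for 38.5% of the genes, 19.2% above and 19.3% below. Besides Prm1, the called genes were Cdk8, Mrpl9, 1600010M07Rik and Gm48594. The counts change with the control mice, as 2 genes were called without control 1, 17 without control 2, and 8 without control 3 or control 4. None was called when each gene was counted once per RS, with 277 genes at an unadjusted p under 0.05.

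Cdk8 was the called gene seen in the most RS. It encodes the kinase of the Mediator complex and lies at chr5:146231230-146302874 (plus strand) of the mm10 build. It was at 210, 239, 196 and 133 CPM in the controls and at 581 CPM in NELF-B cKO replicate 1. The cKO mouse lay far above the controls, with a log2 fold change of 1.58 (SE 0.29, adjusted p = 0.0178, edgeR). Its 326 UMIs came from 102 of 115 RS, and the richest RS held 9 of them (2.76%). The call was kept under 9 of 14 alternatives. It was lost with DESeq2 (adjusted p = 0.323), in RS with at least 10% long-gene UMIs (log2 fold change 1.51) and when counted once per RS (0.63). The level was high outside RS too. Cdk8 was at 358 CPM over all barcodes that passed the filter in that mouse, against 114 to 205 CPM in the controls, and at 408 CPM in its free RNA, against 126 to 261. In late SC it was at 114 CPM against 64.8 to 93.4. The other NELF-B cKO mouse had 200 CPM over all passed barcodes, within the controls, 265 CPM in free RNA, just above them, and 128 CPM in late SC. The late SC barcodes of both NELF-B cKO mice stood apart from those of the controls, where early and late SC markers were at 3180 to 3646 and 2648 to 2885 CPM. These sums were 1956 and 2801 CPM in replicate 1, and 5510 and 2096 CPM in replicate 2. Thinned to 2000 UMIs, 73.0% of the RS had a Cdk8 UMI, against 22.8% to 48.2% in the controls. In barcodes with Sertoli markers of the same mouse this share was 71.7%, against 37.1% to 53.5% in the controls.

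The other 3 called genes rested on single RS. Gm48594, a lincRNA at chr14:11460359-11502992, had 0 UMIs in the RS of all 4 controls and 60 in the NELF-B cKO mouse, all in 1 RS. Mrpl9, a mitochondrial ribosomal protein gene at chr3:94443318-94451130, was at 20.5, 5.84, 28.2 and 14.5 CPM in the controls and at 98.0 CPM in the cKO mouse. Of those 55 UMIs, 46 (83.6%) were in 1 RS. The antisense transcript 1600010M07Rik at chr7:109998376-110151202 was at 34.4, 29.2, 32.6 and 20.7 CPM in the controls and at 121 CPM in the cKO mouse, with 43 of 68 UMIs (63.2%) in 1 RS. Each lay above all controls, as the naming rule asked and as 19.2% of all genes did, and 1 barcode held most of its UMIs. The filter on low counts asked for a minimum CPM in 1 mouse only, and Gm48594 passed it through the cKO mouse alone. Its place above the controls is therefore part of the choice. 1600010M07Rik was also high in this mouse beyond the RS, at 96.2 CPM over all passed barcodes against 34.7 to 51.2 in the controls, and at 116 CPM in free RNA against 32.1 to 60.9.

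**Figure D4:**
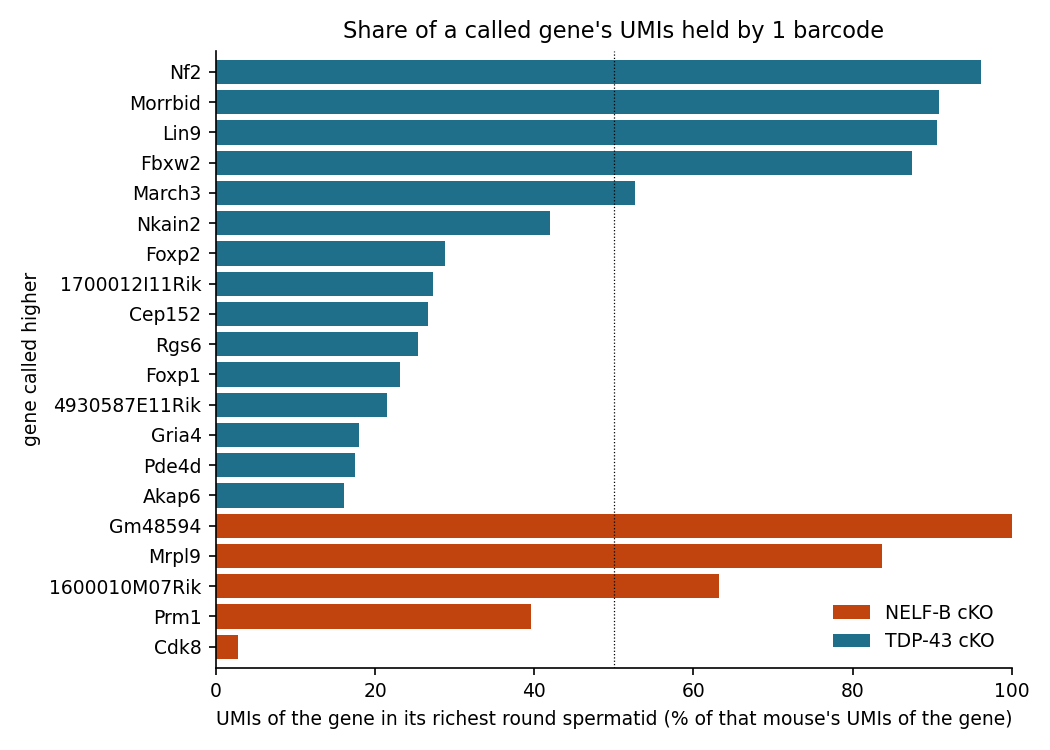
For each gene called higher (y axis), the share of its UMIs (x axis, percent) held by its richest RS in the cKO mouse with the most UMIs of the gene, and a dotted line at 50%. Cdk8 has 2.76% in its richest RS and Gm48594 has all its UMIs in 1 RS, and Nf2, Morrbid, Lin9 and Fbxw2 of the TDP-43 cKO lie far to the right of the line.

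Nelfb itself, which encodes the targeted subunit, was not lower in the RS of the NELF-B cKO. It was at 57.7, 20.4, 23.7 and 14.5 CPM in the control RS and at 85.6 CPM in NELF-B cKO replicate 1. The exact 95% Poisson interval of the cKO value, from 48 UMIs, was 63.1 to 113 CPM, and it overlapped that of control 1 (44.2 to 74.0). The log2 fold change was 1.40 (SE 0.49) with an unadjusted p of 0.00656 and an adjusted p of 1.00 (edgeR), and it was not called. NELF-B cKO replicate 2 had 2 Nelfb UMIs in its 2 RS. The paper reports germ cells that escaped Cre excision, and it took germ cells with NELF-B expression out of its NELF-B cKO data. RS with a Nelfb UMI were kept here, so the 2 sets of cells differ. What part escaped cells had in these values was not tested. The RS value was unlike that of late SC, where Nelfb was at 23.0, 18.6, 21.0 and 24.9 CPM in the controls and at 1.19 and 3.96 CPM in the 2 cKO mice, both from the late SC barcodes that stood apart from the controls.

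The Nelfb UMIs of the cKO RS were spread over 30 of 115 RS (26.1%), against 16.3%, 10.7%, 9.68% and 5.94% in the controls. Thinned to 2000 UMIs, the share was 12.2% against 10.3%, 3.57%, 5.81% and 2.97%. The barcodes with Sertoli markers of the same mouse, thinned alike from a median of 4836 UMIs, gave 0.725%, and its free RNA held 2.78 CPM against 17.6 to 29.1 CPM in the controls. All 48 UMIs lay in RS with at least 10% long-gene UMIs, and the 14 RS under 10% had 0 in 51379 UMIs, which allows up to 58.4 CPM. Over 15000 UMIs the mouse also stood above the controls, at 19.1 CPM (15.7 to 22.9) against 7.58, 7.69, 9.10 and 6.42 CPM. Stpg3, the gene upstream of Nelfb on the same strand, was at 136, 61.3, 128 and 108 CPM in the control RS and at 46.4 CPM in the cKO RS. Counting each gene once per RS gave a log2 fold change of 0.98 for Nelfb, and leaving out each control in turn gave 1.23 to 2.10. Which transcript the UMIs come from cannot be told from 3′ counts.

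**Figure D5:**
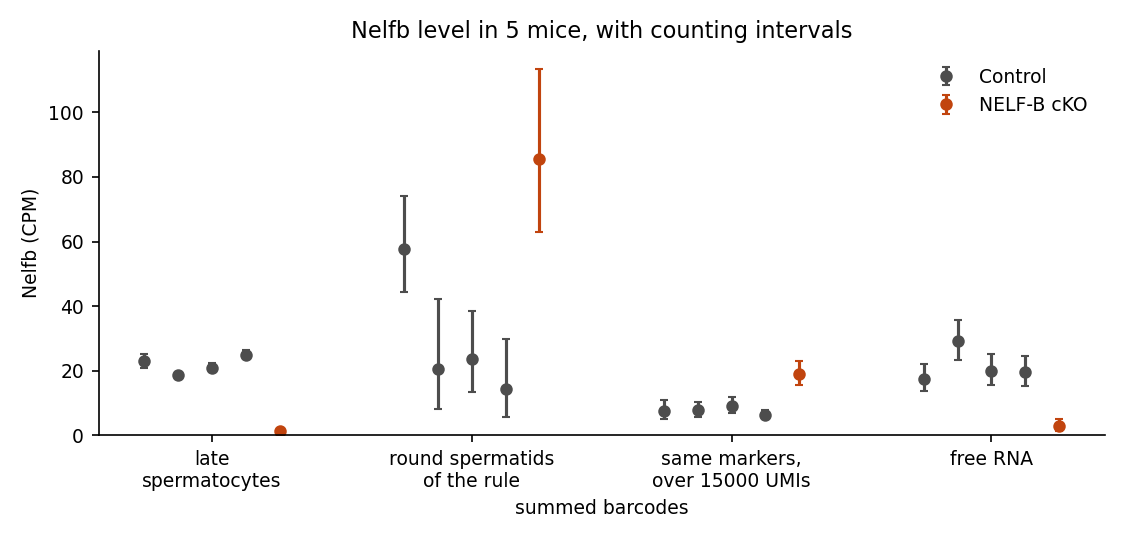
Nelfb level (CPM, y axis) in the 4 control mice and NELF-B cKO replicate 1, in late SC, RS, barcodes with the RS markers and over 15000 UMIs, and free RNA (x axis), with exact 95% Poisson intervals. The cKO mouse lies below the controls in late SC (1.19 CPM) and free RNA (2.78 CPM) and above them in RS (85.6 CPM) and the larger barcodes (19.1 CPM).

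Most spermatid lists had a median near that of all genes in NELF-B cKO replicate 1, and the nuclear condensation list and the somatic markers did not. The median log2 fold change over all genes was -0.03. The median was -0.01 for 14 acrosome genes, 0.01 for 24 flagellum genes, -0.17 for 12 glycolysis genes, 0.13 for 8 spermatid kinases, -0.04 for 14 haploid regulators and -0.16 for 12 genes of translational control, with no gene of these lists called. Of 11 nuclear condensation genes, 6 lay above all controls, as did 19.2% of all genes, and 1 was called, with a median of 0.53. Their sum was 13368 CPM, against 2529 to 6894 CPM in the controls. The 14 RS with under 10% long-gene UMIs carried much of it, at 69756 CPM. The value in such RS is given for control 1 alone, at 9808 CPM from 80 RS. Controls 2 to 4 held 6, 16 and 24 such RS, so the gap to control 1 does not stand for all controls. Among the 14 of the cKO mouse was its barcode with the most UMIs of Prm1 (842), Prm2 (495), Tnp1 (344) and Tnp2 (415). The other 101 RS of the cKO mouse were at 7683 CPM, against 2512 to 6717 CPM in the control RS with at least 10% long-gene UMIs. Of 8 X and Y spermatid genes, 5 lay above all controls (19.2% of all genes) and 0 were called, with a median of 0.35. Fsip2 had a log2 fold change of 0.77 (unadjusted p = 0.0147, edgeR). The 6 tested genes of the pausing list had a median of 0.27, with Nelfb the highest. The medians were 0.10 for 7 early SC, -0.31 for 7 late SC and -0.74 for 3 spermatogonia markers. Among other cell types, the 5 tested Sertoli markers had a median of -1.43, and their 8-gene sum was 153 CPM against 216 to 567 CPM. The Leydig sum was 55.3 CPM and that of other somatic cells 102 CPM in this mouse, above the control ranges, with Adgre1 at a log2 fold change of 2.00 and Hbb-bs at 2.44, neither called. The stress genes summed to 99.8 CPM against 40.8 to 88.4, with a median of 0.81 over 4 genes.

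The balance of late and early genes and the position on the first component were compared over mice, in a design of 4 mice against 1 that cannot reach a p under 0.05. The log2 ratio of the nuclear condensation and flagellum lists to the SC markers was 2.75, 2.37, 2.87 and 2.92 in the controls and 3.39 in this mouse, above all 4. The difference was 0.66, with p = 0.4 in the exact permutation test, the smallest p that 4 mice against 1 can give. On the first component, which follows the long-gene share, the medians were 1.65, -6.08, -5.71 and -9.77 in the controls and -5.19 in this mouse, a difference of -0.21 with p = 0.8 (exact permutation). Its sign turned without control 1 (2.00), without the RS that held a Nelfb UMI (0.99) and on the second component (3.34).

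In the TDP-43 cKO, most of the genes called higher were long, and Prm1 and Prm2 were among the genes called lower. Nkain2, a membrane protein gene spanning 1201 kb at chr10:31689310-32890462, was at 89.4, 75.9, 89.0 and 104 CPM in the controls and at 345 and 450 CPM in the cKO mice. The groups did not overlap, and the log2 fold change was 2.11 (SE 0.28, adjusted p = 4.19e-05, edgeR). Foxp2, a forkhead transcription factor gene spanning 541 kb at chr6:14901349-15441977, was at 54.9, 67.1, 84.5 and 106 CPM against 189 and 384 (log2 fold change 1.94, adjusted p = 0.00176, edgeR). It too was above every control in both mice, which the naming rule asked of both genes. Nkain2 kept its call under 13 of 16 alternatives and Foxp2 under 12. The richest RS of replicate 3 held 29 of its 69 Nkain2 UMIs and 17 of its 59 Foxp2 UMIs. Counted once per RS, the log2 fold changes were 0.99 for Nkain2 and 0.75 for Foxp2, and neither was called. In free RNA Nkain2 was at 26.8 to 51.2 CPM in the controls and at 123 and 137 in the cKO mice, and Foxp2 at 1.93 to 3.20 against 2.71 and 0.642.

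Of the 10337 genes, 21 (0.203%) were called in the TDP-43 cKO, 15 higher (0.145%) and 6 lower (0.058%), and 1510 (14.6%) had an unadjusted p under 0.05. The 2 cKO mice lay outside all 4 controls for 31.1% of the genes, 13.1% above and 18.0% below. Of the 15 higher genes, 10 spanned over 100 kb, against 16.8% of all genes tested, and their median span was 324 kb, against 25.99 kb for all tested. Of the 6 lower genes, 1 did, and the median span was 12.0 kb. The long-gene share of the RS moved with these genes, at medians of 23.8% and 29.6% against 17.3% to 22.2%, and its part was not tested. The number of calls rests on single libraries. It was 5 without control 1, 208 without control 2, 17 without control 3, 66 without control 4, 12 without TDP-43 cKO replicate 2 and 1 without TDP-43 cKO replicate 3. It was 6 in RS with at least 10% long-gene UMIs, and 1, Prm1, when each gene was counted once per RS.

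Other long genes were higher in both mice. Gria4, an AMPA receptor subunit gene, was at 69.9 ± 11.4 CPM in the controls and at 190 and 254 CPM in the cKO mice (log2 fold change 1.68, adjusted p = 0.00979, edgeR). Pde4d, a cAMP phosphodiesterase gene, was at 158 ± 30.6 CPM against 293 and 521, and Rgs6, a regulator of G protein signalling, at 132 ± 18.1 CPM against 293 and 410, both with an adjusted p of 0.0152 (edgeR). Foxp1 and Akap6, a kinase anchor, had log2 fold changes of 1.78 and 1.61, both with an adjusted p of 0.0494 (edgeR). Replicate 2 had 5 Foxp1 UMIs, 4 of them in 1 RS, and 8 Akap6 UMIs. The antisense transcript 4930587E11Rik, not as long, was at 176 ± 23.5 CPM against 431 and 515 (1.38, adjusted p = 0.00777, edgeR). The centriole gene Cep152 was at 15.8 ± 8.58 CPM against 68.9 and 97.7, from 4 and 15 UMIs (2.58, adjusted p = 0.0494, edgeR). In each of these the groups did not overlap, which the naming rule asked of all but 4930587E11Rik. Both cKO mice lay above all controls for 13.1% of all genes. Under 16 alternatives each, the call was lost for Foxp1 and Akap6 in 12, Cep152 in 11, Pde4d in 8, Gria4 in 7, Rgs6 in 6 and 4930587E11Rik in 5. In RS with at least 10% long-gene UMIs the log2 fold changes of these 7 genes ranged from 1.18 for 4930587E11Rik to 2.62 for Cep152, and none was called. In barcodes of over 15000 UMIs they ranged from 0.05 for Pde4d to 1.22 for Rgs6, with replicate 3 as the only TDP-43 cKO mouse in the fit.

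Single RS gave other calls. For Fbxw2, an F-box protein gene, 21 of 24 UMIs of TDP-43 cKO replicate 3 were in 1 RS. For the tumour suppressor gene Nf2 it was 25 of 26, for Lin9 29 of 32 in replicate 2, and for the lincRNA Morrbid 20 of 22. Their log2 fold changes were 3.77, 2.56, 2.92 and 2.49. Fbxw2 was at 34.5 and 156 CPM and Nf2 at 86.1 and 169 CPM, both mice above every control as the naming rule asked. The replicate 2 values rest on 2 Fbxw2 and 5 Nf2 UMIs. Lin9, at 551 and 26.1 CPM, and Morrbid, at 0 and 143 CPM, were high in 1 mouse. In barcodes of over 15000 UMIs all 4 had the opposite sign, in a fit whose TDP-43 cKO arm was replicate 3 alone. Replicate 2, which held most of the Lin9 UMIs, had 8 such barcodes and was left out. The remaining higher genes, 1700012I11Rik and March3, overlapped the controls in 1 of the mice.

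Of the lower genes, Prm1 was at 103 and 26.1 CPM in TDP-43 cKO replicates 2 and 3, from 6 and 4 UMIs in 1 and 4 RS, against 70.0 to 1145 CPM in the controls. Its log2 fold change was -4.01 (SE 0.73, adjusted p = 0.00521, edgeR). Prm2 was at 34.5 and 71.7 CPM against 55.4 to 812 (log2 fold change -3.24, adjusted p = 0.0157, edgeR). For both, control 2 lay among the cKO mice, so the groups overlapped. In free RNA, Prm1 was at 497, 5.12, 712 and 782 CPM in the controls and at 4.74 and 1.28 in the cKO mice. Prm2 was there at 334, 7.37, 423 and 543 CPM, against 2.71 and 0.642 CPM. Without thinning, a Prm1 UMI was found in 45.7%, 0.645%, 53.9% and 37.0% of control barcodes with Sertoli markers, against 0.405% and 0%. What part free RNA had in the lower RS values was not tested. The call was lost under 7 of 16 alternatives for Prm1 and 9 of 16 for Prm2, DESeq2 among them. Tnp2, at 189 and 104 CPM against 90.4 to 1020, had -2.41 (adjusted p = 0.0511, edgeR) and was not called. Tnp1, at 844 and 189 CPM against 236 to 970, had -0.62 (adjusted p = 0.499, edgeR). In replicate 2, 1 RS of 5179 UMIs held 38 of 49 Tnp1 UMIs and 10 of 11 Tnp2 UMIs.

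The other 4 lower genes did not overlap the controls, which the naming rule asked for and which held for 18.0% of all genes. Agbl5, which encodes an enzyme that trims glutamate chains on tubulin, was at 110, 149, 114 and 106 CPM in the controls and at 17.2 and 19.5 CPM in the cKO mice, from 1 and 3 UMIs. Its log2 fold change was -2.68 (SE 0.57, adjusted p = 0.0244, edgeR). Diablo, a mitochondrial promoter of apoptosis, was at 248, 187, 179 and 186 CPM against 103 and 39.1 (-1.84, adjusted p = 0.0494, edgeR). The non-coding 4930500H12Rik was at 548, 443, 688 and 329 CPM against 258 and 137 (-1.57, adjusted p = 0.0478, edgeR). The lncRNA 2700046G09Rik was at 80.0, 55.4, 60.8 and 78.7 CPM against 0 and 6.51 (-3.87, adjusted p = 0.0494, edgeR). With 14 and 31 RS, these low levels rest on few UMIs. In barcodes of over 15000 UMIs the fit held replicate 3 as its only TDP-43 cKO mouse. There the log2 fold changes were -0.63 for Agbl5, -0.27 for Diablo, -0.19 for 2700046G09Rik and -2.86 for 4930500H12Rik. The call was lost under 9 of 16 alternatives for Agbl5, 10 for 4930500H12Rik and 11 each for Diablo and 2700046G09Rik, and none of the 4 was called in RS with at least 10% long-gene UMIs, where the log2 fold changes were -2.46 for Agbl5, -1.73 for 4930500H12Rik, -1.89 for Diablo and -3.44 for 2700046G09Rik.

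Tardbp was at 57.7, 64.2, 46.0 and 53.8 CPM in the control RS and at 86.1 and 39.1 CPM in the TDP-43 cKO, 1 above and 1 below all controls. These 2 values rest on few RS, as 3 of 14 and 5 of 31 had a Tardbp UMI. The log2 fold change of Tardbp was -0.10 (adjusted p = 0.949, edgeR), and it turned to 0.46 without TDP-43 cKO replicate 3 and to 0.08 in RS with at least 10% long-gene UMIs. Over 15000 UMIs it was -1.12, with replicate 3 as the only TDP-43 cKO mouse in the fit.

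Genes of translational control were the list with the lowest median among spermatid lists. Of 12 tested, 9 lay below all controls (18.0% of all genes), 2 above (13.1%), and 9 had an unadjusted p under 0.05 (14.6%), but 0 were called, with a median of -0.92 against -0.07 for all genes (edgeR). Piwil1, the PIWI protein of pachytene piRNAs, had -1.65 (adjusted p = 0.0846), the RNA helicase gene Ddx25 -1.24 (0.0974), Ybx3 -0.93 (0.0997) and Ybx2 -0.99 (0.114, edgeR). The sum was 2515 and 2678 CPM against 3658 to 4662 in the controls. This list and the glycolysis list moved with the long-gene share among RS, and their part was not tested. In RS with at least 10% long-gene UMIs alone, translational control was at 2515 and 2141 CPM against 2999 to 4317, and glycolysis at 4496 and 3285 CPM against 4165 to 6469, which overlap. Nuclear condensation had a median of -0.62 over 11 genes with 2 called lower (0.058% of all genes). Of the list, 1 gene lay below all controls (18.0% of all genes) and 1 above (13.1%). The late SC markers had a median of -1.01 and the early SC markers -0.64 over 7 genes each, with 0 called. The glycolysis sum was 4496 and 4039 CPM against 5985 to 7856, with a median of -0.26 over 12 genes and 5 at an unadjusted p under 0.05, and Ldhc had -0.99 (adjusted p = 0.0819, edgeR). The medians of the other spermatid lists were -0.12 for acrosome genes, -0.09 for flagellum genes, -0.05 for kinases, -0.03 for haploid regulators and -0.10 for X and Y genes. Rsph1 in the flagellum list had -1.15 (adjusted p = 0.0672, edgeR). The pausing list had -0.19 over 6 genes, the 3 spermatogonia markers 0.36, the 5 Sertoli markers 0.15 and the 4 stress genes 1.08, with 0 called. The Sertoli sum was 724 and 378 CPM, the former above the controls, and the Leydig sum 17.2 and 0 CPM.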

How the data were processed

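Whole testes of 4 Control, 2 NELF-B cKO and 3 TDP-43 cKO mice were digested and captured with 10x Genomics 3′ chemistry. The authors deposited raw matrices of UMI counts per gene and barcode, unnormalized, mapped to the mm10 build with Cell Ranger 7.0.0 by the study's methods, after demultiplexing with version 6.1.1. The file headers name Cell Ranger 4. Whether introns were counted is not given in the sources used here. Free RNA was not subtracted, and no doublet caller was run here. Members and lists were chosen with earlier results of these data known. Counts were summed over the members of a mouse, with at least 10 members, and tested with edgeR 4.0.16 (filterByExpr, TMM, quasi-likelihood F test, Benjamini-Hochberg adjustment over 10337 genes, 4 residual degrees of freedom) in R 4.3.3. The filter on low counts asked for a minimum CPM in 1 mouse only, the size of the smallest group. DESeq2 1.42.0 was an alternative. The SE given with a log2 fold change is its absolute value over the square root of the F statistic, derived from the test and not fitted. Single values were compared by exact two-sided permutation over mice. Mice of a group were separate animals, so p-values rest on the spread between mice. In the edgeR fit that spread came from the control and TDP-43 cKO mice alone. Named genes were all list members called, and up to 10 called genes per direction with the largest fold change, no overlap of the groups and at least 20 CPM. Other called genes, the protamine and transition protein genes, Nelfb, Tardbp, Stpg3 and genes of lists that were not called were named after their values were seen. Late SC barcodes held at least 4 late SC markers. Promoters came from RefSeq GRCm38.p6, in which all 5 genes matched. The deviations of same-numbered Control and TDP-43 cKO mice correlated at 0.05 and 0.04. With 2 TDP-43 cKO mice these deviations mirror each other, so they cannot decide whether replicate numbers pair the mice.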

Additional observations from a re-analysis of the deposited data

Results flagged for a closer look

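Of 82 values examined over the 4 control mice, 3 had a mouse whose gap to the nearest other mouse took up an unusually large part of the range, where chance gives about 1 in 20. Diablo stood at 248 CPM in the RS of control replicate 1 and at 179 to 187 CPM in the other controls. Ldhc stood at 4867 CPM in control replicate 1 and at 3383 to 3586 CPM in the others. Ctnna3 stood at 1430 CPM in control replicate 2 and at 2061 to 2102 CPM in the others. RS with under 10% long-gene UMIs numbered 80 of 301, 6 of 56, 16 of 155 and 24 of 101 in control replicates 1 to 4. Their part in the flagged values was not tested.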

How the results depend on the processing

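The lower share of RS kept its direction under all alternatives, from -2.47 to -0.193 percentage points for the NELF-B cKO (14 alternatives, exact permutation p 0.2 to 0.8) and from -3.45 to -0.345 for the TDP-43 cKO (15 alternatives, p 0.0571 to 0.267), and without single mice from -2.36 to -0.386 and from -2.55 to -1.46. Called genes, 5 in the NELF-B cKO and 21 in the TDP-43 cKO, became 1 and 65 with DESeq2, 13 and 127 with no filter on low counts, 3 and 9 in members with at least 4 markers, 1 and 8 at an adjusted p under 0.01 with a log2 fold change of at least 1, and 8 for the TDP-43 cKO with only its mice and the controls. Settings chosen after seeing the data gave 2 and 6 in RS with at least 10% long-gene UMIs, 0 and 2 in barcodes of over 15000 UMIs (446 and 1864 genes at an unadjusted p under 0.05) and 0 and 1 with each gene counted once per RS. Leaving out single mice gave 2 to 17 and 1 to 208 calls, the most without control replicate 2 and the fewest without control replicate 1 or TDP-43 cKO replicate 3. Over 15000 UMIs TDP-43 cKO replicate 2 held 8 barcodes and was left out, so each cKO arm was 1 mouse there. The cause of these shifts was not tested. Of 402 values of called genes under alternatives, 208 kept direction and call, 185 lost the call and 9 turned. The turned values were, over 15000 UMIs, Fbxw2 -0.45, Nf2 -0.11, Lin9 -1.08, 1700012I11Rik -1.17 and Morrbid -0.26, and once per RS Morrbid -0.60. Without single mice Lin9 ranged from -0.12 to 4.13, 1700012I11Rik from -0.33 to 2.85 and Morrbid from -6.10 to 3.11, negative without the TDP-43 cKO mouse that held most of the UMIs, replicate 2 for Lin9 and replicate 3 for the others. Nelfb stayed higher under all 11 alternatives (0.53 to 2.10). Tardbp turned to 0.078 in long-gene RS and ranged from -0.53 to 0.46 without single mice. The difference in median UMIs per RS, -294 for the NELF-B cKO, ranged from -660 to 193 without single controls. The difference on the first component turned to 0.99 without RS holding a Nelfb UMI and to 3.34 on the second component, and ranged from -1.81 to 2.00 without single controls, while the late-to-early ratio ranged from 0.54 to 0.73. With the replicate number as a block, the counts were 7 and 15 and Nelfb was at 0.53. Whether the numbers pair the mice could not be decided. Depth limits the cKO values, as 45 TDP-43 cKO RS held 58052 and 153492 UMIs, on which 3 UMIs are worth 51.7 and 19.5 CPM.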
